A study of Mus musculus with 13 samples.

Results

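The 9 interferon-stimulated genes Isg15, Ifit1, Ifit3, Irf7, Oasl2, Rsad2, Usp18, Zbp1 and Bst2 were followed in aortas of adenovirus-injected mice. They were taken by gene name from the deposited count table, which lists 54532 genes, and all 9 were among the 15811 genes that had enough counts to be tested. The table holds 13 aortas, 6 labelled Ad-sham and 7 labelled Ad-FAM3A, and each aorta is 1 RNA-seq library. All mice were ApoE knockout and received AngII from a subcutaneous pump, at 1000 ng/kg/min for 28 days from an age of 10 weeks per the study's methods, a treatment that gives abdominal aortic aneurysms in this strain. All were also given 5 tail vein injections of adenovirus at intervals of 7 days, the first before the pump was placed. Ad-FAM3A aortas came from mice given a vector with tagged mouse Fam3a, and with mCherry after an internal ribosome entry site. The study's methods place these behind the EF1A promoter, which is active in most cell types, but also name a CMV vector. Ad-sham aortas came from mice given the same vector without Fam3a. The sex of these mice is not given in the sources used here. Since every mouse carried a virus and an AngII pump, no response to adenovirus or to AngII themselves could be measured, and the comparison is between the 2 vectors.

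Interferon-stimulated genes are the output of a defence pathway. Sensors of foreign or misplaced nucleic acid switch on genes for type I interferons, which are secreted, bind a receptor on the same and on neighbouring cells, and activate a complex of transcription factors that binds interferon-stimulated response elements in promoters. Adenoviral DNA is a known trigger of such sensing, and interferon responses have also been described in macrophages of the diseased vessel wall. The proteins made from these genes have different tasks: IRF7 amplifies interferon production, IFIT, OASL2, RSAD2 and BST2 act against viral RNA, replication or release, ISG15 is a ubiquitin-like modifier that USP18 removes, and ZBP1 senses unusual nucleic acid and can start cell death.

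The interferon-stimulated response element was searched as its letters GAAANNGAAA, on both strands, in the 250 bases before the start site in the RefSeq promoter table of build GRCm38.p6. The table had entries for 7 of the 9 genes, Usp18 and Zbp1 not being among them, and 5 of the 7 (71.4%) held at least 1 match. The same letters occurred in 936 of all 27025 genes with a promoter window in that table (3.46%). Counted by windows, of which a gene can have several, they occurred in 978 of 32851 (2.98%). For the 5 genes with a match, the bases from 250 to 51 before the start site are printed below 5′ to 3′ in the direction of the gene, with the matched letters in capitals and the rest in lower case, to show how the matches are placed.
Isg15, chr4:156200869-156201068, strand minus: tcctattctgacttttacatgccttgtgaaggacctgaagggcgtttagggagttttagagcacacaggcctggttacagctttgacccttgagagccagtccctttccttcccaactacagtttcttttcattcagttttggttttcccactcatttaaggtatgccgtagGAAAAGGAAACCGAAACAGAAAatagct
Ifit1, chr19:34640639-34640838, strand plus: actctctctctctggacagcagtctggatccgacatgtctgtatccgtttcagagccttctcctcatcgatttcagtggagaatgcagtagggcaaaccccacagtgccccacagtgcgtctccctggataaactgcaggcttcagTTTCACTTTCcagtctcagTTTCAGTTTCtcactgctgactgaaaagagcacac
Ifit3, chr19:34583279-34583478, strand plus: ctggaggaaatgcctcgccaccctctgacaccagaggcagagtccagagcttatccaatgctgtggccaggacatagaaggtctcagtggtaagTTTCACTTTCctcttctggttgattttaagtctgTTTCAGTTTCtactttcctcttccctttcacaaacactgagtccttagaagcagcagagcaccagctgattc
Rsad2, chr12:26456503-26456702, strand minus: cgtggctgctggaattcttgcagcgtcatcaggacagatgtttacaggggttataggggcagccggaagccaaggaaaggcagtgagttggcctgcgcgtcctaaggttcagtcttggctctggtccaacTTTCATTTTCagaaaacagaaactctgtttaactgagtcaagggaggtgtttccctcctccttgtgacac
Bst2, chr8:71537523-71537722, strand minus: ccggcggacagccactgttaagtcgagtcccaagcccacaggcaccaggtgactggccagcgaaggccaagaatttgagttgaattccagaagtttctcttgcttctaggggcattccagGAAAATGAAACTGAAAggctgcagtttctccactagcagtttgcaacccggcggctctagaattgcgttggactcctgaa
Isg15 held 3 overlapping matches between 78 and 57 bases before the start, and Bst2 held 2 overlapping ones between 130 and 115. Ifit1 and Ifit3 carried the same pair of words on the other strand, TTTCACTTTC followed by TTTCAGTTTC, at 104 and 85 bases before the start in Ifit1 and at 156 and 122 in Ifit3. Rsad2 had 1 match, TTTCATTTTC at 120 bases. Irf7 and Oasl2 had no exact match in this window, which says only that these letters are not there. Among genes of the related lists used further on, a match was found in 13 of 39 other type I interferon-stimulated genes (33.3%), 12 of 24 interferon-gamma and antigen presentation genes (50%), 2 of 16 interferon receptors and signal transducers (12.5%) and 1 of 15 nucleic acid sensors (6.67%). A match is a description of letters, not a measured binding site.

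Total counts ran from 14481179 to 19797407 per aorta. A count of 0 allows up to 3 counts, equal to 0.140 to 0.221 CPM (counts relative to library size after TMM scaling), which covers counting error only. In Ad-sham the Fam3a transcript averaged 24.4 ± 4.27 CPM (SD, n = 6), and in Ad-FAM3A 24.0 ± 4.64 CPM (SD, n = 7), so it did not separate the groups, and every direction below refers to the labels. In these bulk libraries fewer cells of a type and less RNA per cell cannot be told apart. Smooth muscle markers, the defining genes of the aortic media, summed to between 2271 and 18280 CPM, and adipocyte markers to between 2286 and 10270 CPM. Ad-FAM3A6 and Ad-FAM3A7 stood apart from the rest: immunoglobulin genes took 3.41% and 0.956% of their counts, against at most 0.0431% in the other 11 aortas. Results are therefore also given without these 2 aortas. The choice rests on immunoglobulin genes, but it was made with earlier results of these data known and takes aortas from the Ad-FAM3A group only. No 2 aortas had identical counts, and the highest correlation of log2 CPM between aortas of 1 group was 0.969.

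Per kilobase of the deposited gene length, a rough scale for comparing genes, Bst2 was the highest of the 9 genes. It had 63.1 ± 19.1 CPM per kilobase (SD, n = 13) and was above the next gene, Ifit3, in 13 of 13 aortas. Ifit3 followed at 10.5 ± 4.03, Isg15 at 7.99 ± 4.34, Ifit1 at 6.12 ± 2.96, Rsad2 at 4.89 ± 1.89, Irf7 at 4.74 ± 2.27 and Oasl2 at 4.40 ± 1.53 CPM per kilobase. Usp18 with 2.62 ± 0.936 and Zbp1 with 2.58 ± 1.88 CPM per kilobase were lowest. The deposited length of Irf7, 3776 bases, equals its whole span on the chromosome, so its level per kilobase and its place in this order may be understated. Oasl2 was above Usp18 in 11 of 13 aortas. The other neighbours in this order lay within their spread, Ifit1 being above Rsad2 in 10 of 13 aortas, Ifit3 above Isg15 in 9, Isg15 above Ifit1 in 8, Rsad2 above Irf7 in 6, Irf7 above Oasl2 in 7 and Usp18 above Zbp1 in 8. The authors' group means in FPKM, deposited without replicates, were 64.7 for Bst2 in Ad-sham and 61.0 in Ad-FAM3A, and 2.54 and 2.62 for Zbp1.

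Between the 2 vectors, 8 of the 9 genes had a log2 fold change below 0, that is, a fitted level lower in the aortas labelled Ad-FAM3A, and Zbp1 was at 0.02. Over all genes tested 49.6% lay below 0. The median log2 fold change of the 9 genes was -0.34, beside 0.003 over all genes. Among cell type markers, all 8 for smooth muscle lay above 0 (median 0.33), and all 7 for fibroblasts (-0.25) and 6 for adipocytes (-0.73) below. All 10 B cell, 10 T cell and 5 tested plasma cell markers lay above 0, and the other cell type lists lay on both sides. The part of tissue composition in the levels of the 9 genes was not tested. None of the 9 passed edgeR's quasi-likelihood test after Benjamini-Hochberg adjustment over all genes, where the called share of all genes was 0%, and the smallest adjusted p of any gene was 0.810. At an unadjusted p under 0.05, 1 of the 9 genes, Ifit3, was lower, against 2.93% of all genes lower and 5.91% (934 genes) in either direction, and none of the 9 was higher. For none of the 9 did the 2 groups separate without overlap, which 0.0949% of all genes did. DESeq2, which called 10 genes in all, called none of the 9 either.

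**Figure D1:**
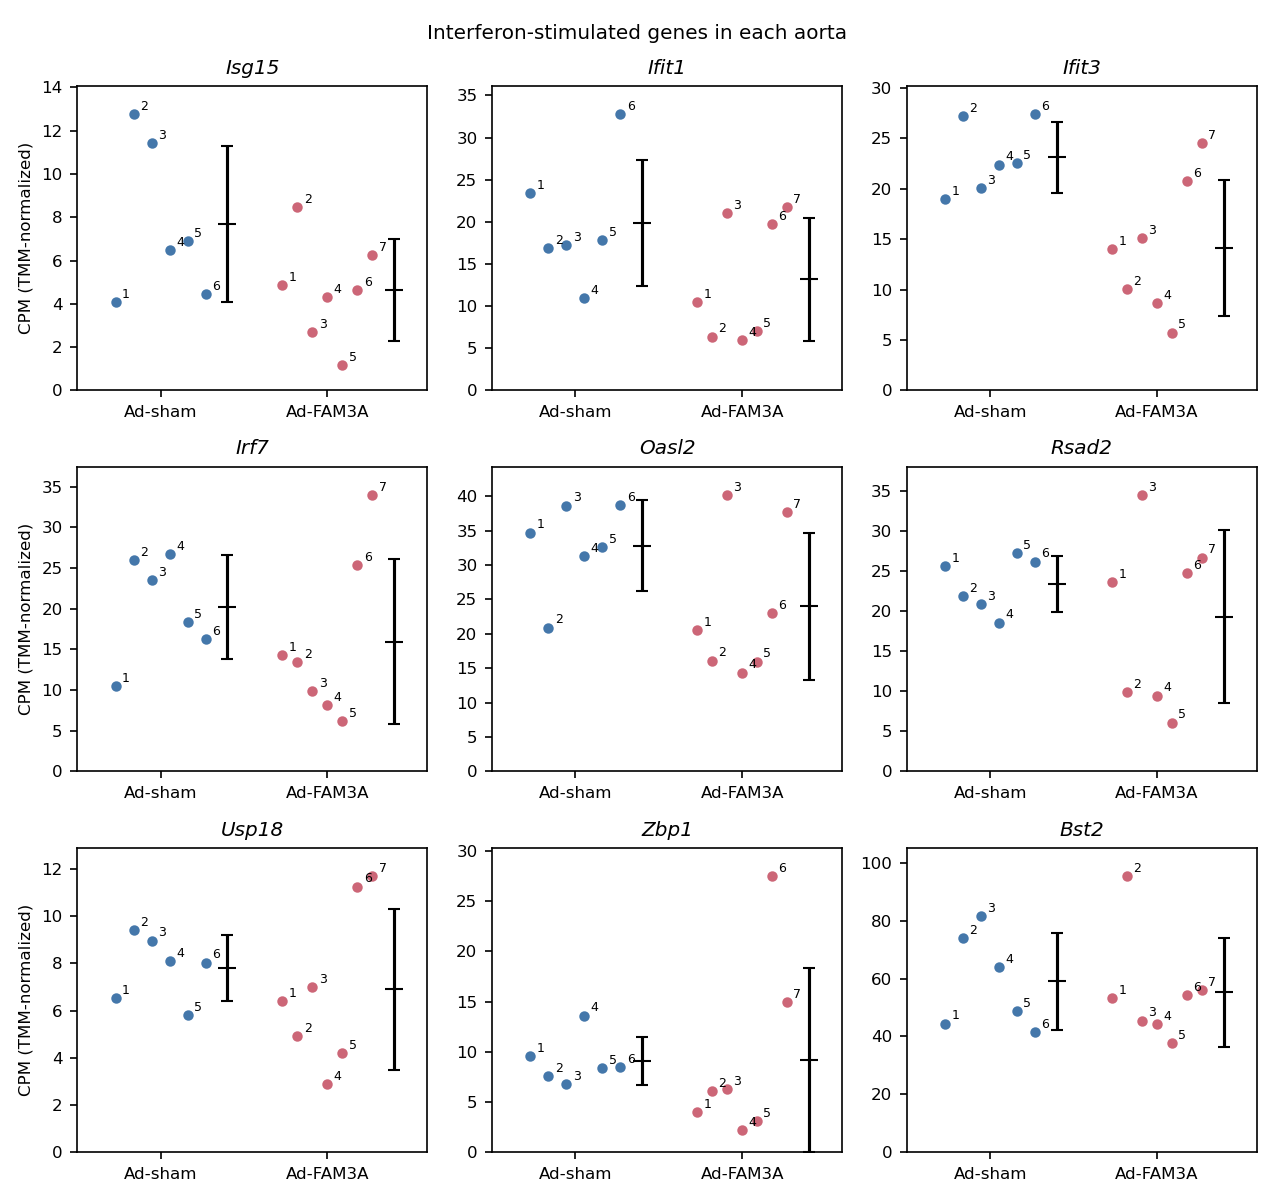
TMM-normalized CPM (vertical axes, from 0) of each of the 9 genes in every aorta, blue for Ad-sham and red for Ad-FAM3A, with the replicate number beside each point and black bars for mean ± SD (n = 6 and n = 7). Ad-FAM3A4 or Ad-FAM3A5 is the lowest point of each panel, and Ad-FAM3A6 and Ad-FAM3A7 lie above the other aortas of their group for Ifit3, Irf7, Usp18 and Zbp1.

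Ifit3 (ENSMUSG00000074896, chromosome 19, 34583531 to 34588731 of GRCm38, plus strand) encodes a protein with tetratricopeptide repeats that joins IFIT1 on viral RNA. Its lowest, median and highest values were 19.0, 22.5 and 27.4 CPM in the 6 Ad-sham aortas and 5.74, 14.0 and 24.5 CPM in the 7 Ad-FAM3A aortas. In Ad-FAM3A, 5 aortas lay below the lowest Ad-sham aorta, and Ad-FAM3A6 at 20.8 and Ad-FAM3A7 at 24.5 CPM lay within the Ad-sham range. The log2 fold change was -0.71 (SE 0.28, 95% confidence interval -1.31 to -0.10), with p = 0.0192 in the two-sided exact permutation test over 1716 splits of the aortas and an adjusted p of 0.810 over all genes. The unadjusted p, 0.0251 with 13 aortas, became 0.0511 without Ad-sham6, 0.0541 without Ad-FAM3A2, 0.0553 without Ad-FAM3A4 and 0.0523 with scaling by library totals in place of TMM. Reads of Ifit3 may be shared with its neighbour Ifit3b, since 18.5% of the 150-base stretches of its transcripts also occur in Ifit3b, and how such reads were counted is not given in the sources used here. Ifit3b itself had a log2 fold change of -0.69 (SE 0.35). 

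Ifit1 (ENSMUSG00000034459, chromosome 19, 34640871 to 34650009, plus strand), which binds viral RNA whose cap lacks a methyl group, ran from 11.0 to 32.8 CPM in Ad-sham with a median of 17.5, and from 5.96 to 21.7 CPM in Ad-FAM3A with a median of 10.5. Ad-FAM3A aortas 1, 2, 4 and 5 lay below every Ad-sham aorta, while 3, 6 and 7, at 19.7 to 21.7 CPM, lay within the Ad-sham range. Its log2 fold change was -0.59 (SE 0.36, 95% confidence interval -1.36 to 0.19), and 1.24% of its 150-base stretches also occur in Ifit1bl2. Oasl2 (ENSMUSG00000029561, chromosome 5, 114896936 to 114912234, plus strand), an oligoadenylate synthetase-like protein, had 20.9, 33.6 and 38.7 CPM as lowest, median and highest values in Ad-sham and 14.4, 20.5 and 40.2 CPM in Ad-FAM3A. The same 4 aortas were again below all Ad-sham aortas, and Ad-FAM3A3 was the highest of all 13. Rsad2 (ENSMUSG00000020641, chromosome 12, 26442746 to 26456452, minus strand), the radical enzyme viperin, showed a narrow Ad-sham range of 18.6 to 27.3 CPM around a median of 23.8. In Ad-FAM3A it ran from 6.11 to 34.6 CPM around a nearly equal median of 23.7, with aortas 2, 4 and 5 at or under 9.96 CPM and aorta 3 the highest of all. The log2 fold changes were -0.45 (SE 0.26) for Oasl2 and -0.28 (SE 0.34) for Rsad2, and exact permutation p-values were 0.106 for Ifit1, 0.0816 for Oasl2 and 0.219 for Rsad2. With 1 aorta left out, Rsad2 ran from -0.45 without Ad-FAM3A3 to -0.11 without Ad-FAM3A5, and Ifit1 from -0.74 without Ad-FAM3A7 to -0.39 without Ad-sham6.

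Bst2 (ENSMUSG00000046718, chromosome 8, 71534255 to 71537456, minus strand) encodes tetherin, a membrane protein that holds budding virions at the cell surface. It had 41.4, 56.4 and 81.5 CPM as lowest, median and highest values in Ad-sham, and 37.6, 53.1 and 95.5 CPM in Ad-FAM3A. The groups overlapped almost entirely, and 1 Ad-FAM3A aorta, number 5, lay below all Ad-sham aortas. Ad-FAM3A2 was the highest of the 13. The log2 fold change was -0.10 with a 95% confidence interval of -0.58 to 0.39 (two-sided exact permutation test, p = 0.647).

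Isg15 (ENSMUSG00000035692, chromosome 4, 156199424 to 156200818, minus strand) encodes the ubiquitin-like modifier. Its values were 4.10, 6.70 and 12.8 CPM as lowest, median and highest in Ad-sham, and 1.18, 4.65 and 8.48 CPM in Ad-FAM3A. Of the 7 Ad-FAM3A aortas 6 lay below the Ad-sham median, but only numbers 3 and 5 lay below the lowest Ad-sham aorta. The log2 fold change was -0.73 (SE 0.40, 95% confidence interval -1.58 to 0.13), with an exact permutation p of 0.104. edgeR's unadjusted p, 0.0899 with 13 aortas, was 0.0362 without Ad-FAM3A2. The lowest value, in Ad-FAM3A5, rested on 16 counts, with an exact Poisson 95% interval of 9.14 to 26.0 counts. Usp18 (ENSMUSG00000030107, chromosome 6, 121245906 to 121270917, plus strand), the protease that takes ISG15 off its targets and also damps the interferon receptor, ranged from 5.80 to 9.39 CPM in Ad-sham and from 2.89 to 11.7 CPM in Ad-FAM3A, with medians of 8.06 and 6.42 CPM. Aortas 2, 4 and 5 lay below, and 6 and 7 above, all Ad-sham aortas, and the log2 fold change was -0.17 (SE 0.31, exact permutation p = 0.358). With 1 aorta left out it ran from -0.34 without Ad-FAM3A6 to -0.03 without Ad-FAM3A4. Usp18 overlaps 124 exonic bases of Gm44148 on the opposite strand, whose reads could not be set apart if strand was ignored in counting.

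Irf7 (ENSMUSG00000025498, chromosome 7, 141262706 to 141266481, minus strand), the transcription factor, had 10.5, 20.9 and 26.8 CPM as lowest, median and highest values in Ad-sham and 6.18, 13.5 and 34.0 CPM in Ad-FAM3A. The 5 Ad-FAM3A aortas numbered 1 to 5 lay between 6.18 and 14.3 CPM, below 5 of the 6 Ad-sham aortas, whereas Ad-FAM3A6 had 25.4 and Ad-FAM3A7 34.0 CPM. An overlap of 45 exonic bases with Phrf1 on the opposite strand leaves a small part of the Irf7 counts uncertain. Zbp1 (ENSMUSG00000027514, chromosome 2, 173206612 to 173218923, minus strand), the nucleic acid sensor, was divided in the same way and more sharply. Its Ad-sham values ran from 6.82 to 13.6 CPM with a median of 8.42. Ad-FAM3A aortas 1 to 5 had 4.02, 6.09, 6.28, 2.20 and 3.09 CPM, all below the lowest Ad-sham aorta, and Ad-FAM3A6 and Ad-FAM3A7 had 27.5 and 15.0 CPM, both above the highest. In the group comparison these gave edgeR log2 fold changes of 0.02 (SE 0.51) for Zbp1 and -0.34 (SE 0.37) for Irf7. The exact permutation test, which compares mean log2 CPM, gave p-values of 0.411 for Zbp1 and 0.236 for Irf7. For Zbp1 these measures differ. Its unadjusted p by edgeR's quasi-likelihood test was 0.976, and limma-voom, which also works on log2 values, gave a log2 fold change of -0.44. With 1 aorta left out, Irf7 ran from -0.62 without Ad-FAM3A7 to -0.18 without Ad-FAM3A5, and Zbp1 from -0.57 without Ad-FAM3A6 to 0.22 without Ad-FAM3A4.

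**Figure D2:**
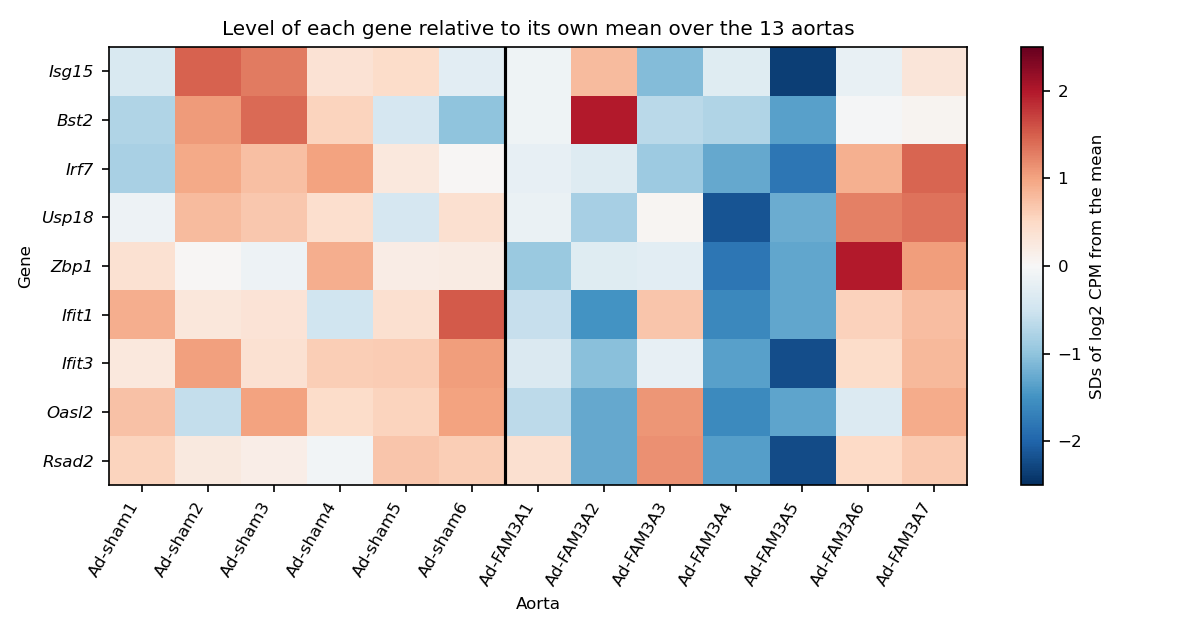
Level of each gene (rows) in each aorta (columns, Ad-sham left and Ad-FAM3A right of the black line), in SDs of log2 CPM from the gene's mean over the 13 aortas, red above and blue below it. The columns of Ad-FAM3A4 and Ad-FAM3A5 are blue in all 9 rows, with mean deviations of -1.36 and -1.68 SDs, and those of Ad-FAM3A6 and Ad-FAM3A7 average 0.57 and 0.82 SDs.

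The 9 genes varied more among the aortas labelled Ad-FAM3A than among Ad-sham aortas. The SD of log2 CPM was larger in Ad-FAM3A for all 9 genes, by 1.05 times for Bst2 and up to 4.36 times for Rsad2, with a median of 1.82. Over all genes the SD was larger in Ad-FAM3A for 55.1%, and the median ratio was 1.06. No test was made of this difference, which was noticed in the values. The mean log2 CPM of the 9 genes lay between 3.96 and 4.28 in the 6 Ad-sham aortas and between 2.68 and 4.46 in the 7 Ad-FAM3A aortas. For every one of the 9 genes the lowest of the 13 aortas was Ad-FAM3A4 (4 genes) or Ad-FAM3A5 (5 genes), whereas these 2 aortas were lowest for 18.6% of all genes tested. These 2 aortas had mean levels of 2.93 and 2.68, against 3.54 to 4.46 in the other 11. They also had the highest smooth muscle marker sums, 18280 and 12990 CPM against at most 12860 CPM elsewhere, and the fewest genes with 10 or more counts, 15216 and 14819 against 15364 to 16754. The part of tissue composition and library complexity in these low values was not tested.

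Ad-FAM3A6 and Ad-FAM3A7 had mean levels of 4.32 and 4.46, just above the highest Ad-sham aorta at 4.28. Their B cell markers summed to 1008 and 420 CPM, against 19.1 to 66.3 CPM in the other 11 aortas. In the comparison of all 13 aortas the 10 listed B cell markers were all higher at an unadjusted p under 0.05, beside 5.91% of all genes in either direction, and without these 2 aortas 0 were higher and 1 lower. Plasma cell markers summed to 1992 and 710 CPM, against at most 341 CPM, and plasmacytoid dendritic cell markers to 111 and 57.6 CPM, against at most 35.9 CPM. Members of that 7-gene list differed: Siglech, a defining gene of these interferon-producing cells, had 19.0 and 20.5 CPM there and at most 2.52 CPM elsewhere, and Ly6d was the largest part of both sums, with 51.7 CPM in Ad-FAM3A6. Ccr9 was highest in Ad-sham4, at 14.5 CPM, and Pacsin1 in Ad-sham5, at 17.9 CPM, against 11.3 and 10.8 CPM in Ad-FAM3A6 and 1.39 and 3.30 CPM in Ad-FAM3A7. T cell markers summed to 692 CPM in Ad-FAM3A6, to 315 CPM in Ad-sham4, to 110 CPM in Ad-FAM3A7 and to at most 48.7 CPM in the other 10 aortas. The same 3 aortas had the 3 highest Zbp1 values. The part of these cells in the levels of the 9 genes was not tested.

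**Figure D3:**
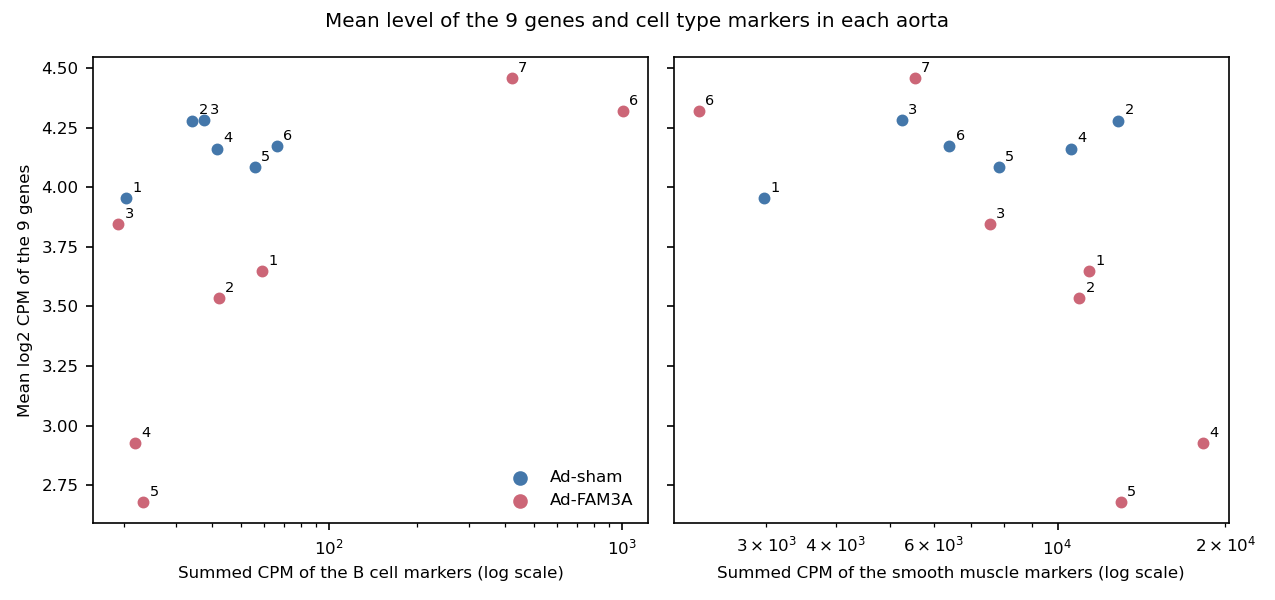
Mean log2 CPM of the 9 genes (vertical axis) against the summed CPM of B cell markers (left) and of smooth muscle markers (right), both on log axes, with 1 point for each aorta labelled by replicate number, blue for Ad-sham and red for Ad-FAM3A. Ad-FAM3A6 and Ad-FAM3A7, at 1008 and 420 CPM of B cell markers, lie at the top, and Ad-FAM3A4 and Ad-FAM3A5, at 18280 and 12990 CPM of smooth muscle markers, at the bottom.

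Without Ad-FAM3A6 and Ad-FAM3A7, all 9 genes had a log2 fold change below 0, as did 52.0% of all genes, and their median moved from -0.34 to -0.83, beside -0.01 over all genes. These 2 aortas had the highest mean levels of the 9 genes, 4.32 and 4.46. Leaving them out lowers the Ad-FAM3A levels, and the p-values below carry that choice. In the same fit all 8 smooth muscle markers were above 0 (median 0.66), and all 6 adipocyte (-0.66) and 10 T cell markers (-1.2) below. No other cell type list lay wholly on 1 side of 0. The part of tissue composition was not tested. Of the 9 genes 6, Ifit1, Ifit3, Irf7, Oasl2, Usp18 and Zbp1, were lower at an unadjusted p under 0.05, against 2.84% of all genes. None passed the adjustment over all genes (0% of genes called, smallest adjusted p = 0.776 by edgeR's quasi-likelihood test). Ifit3 had a log2 fold change of -1.12 (SE 0.23) and Zbp1 one of -1.07 (SE 0.30), and for these 2 genes every remaining Ad-FAM3A aorta lay below every Ad-sham aorta, which held for 0.252% of all genes. Their exact permutation p was 0.00216, the smallest that 462 splits of 11 aortas can give. For the other genes it was 0.0173 for Usp18, 0.0217 for Irf7, 0.0281 for Ifit1, 0.0368 for Oasl2, 0.0887 for Isg15, 0.113 for Rsad2 and 0.638 for Bst2. Ifit1 stood at -0.98 (SE 0.36) and Irf7 at -0.96 (SE 0.28), followed by Isg15 at -0.83 (SE 0.47), Oasl2 at -0.63 (SE 0.27), Usp18 at -0.63 (SE 0.26) and Rsad2 at -0.50 (SE 0.37), while Bst2 was at -0.10 (SE 0.27). Zbp1 thus turned from 0.02 to -1.07 with the removal of 2 of 7 aortas. The median of the 9 genes also moved when single aortas were left out, to -0.18 without Ad-FAM3A5, -0.21 without Ad-FAM3A4 and -0.60 without Ad-FAM3A7.

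**Figure D4:**
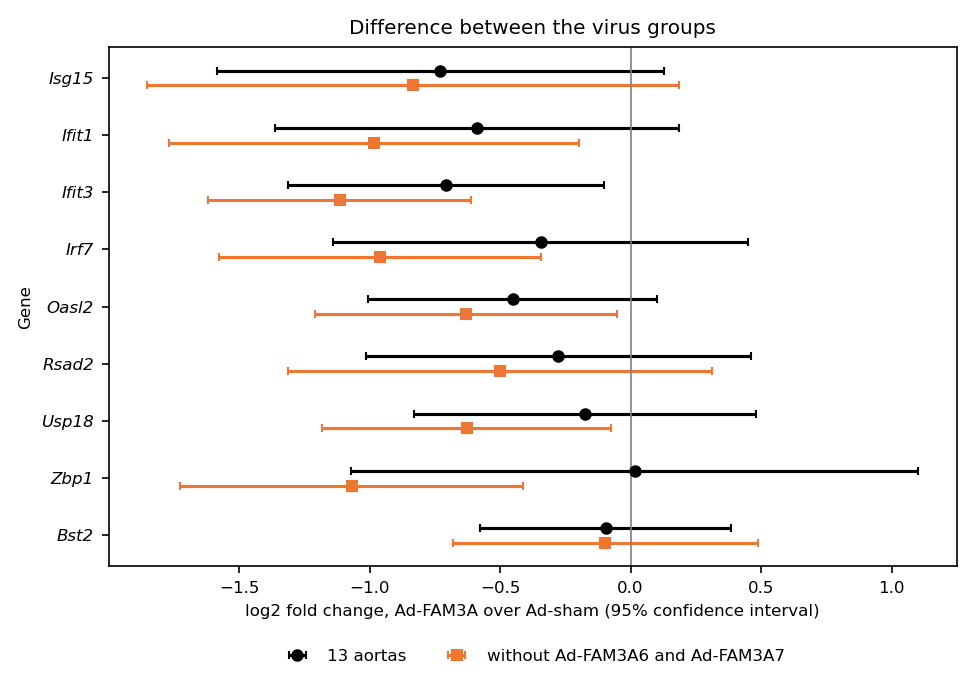
Log2 fold change of each gene, Ad-FAM3A over Ad-sham (horizontal axis, with 95% confidence intervals from edgeR's fit), with all 13 aortas (black circles) and without Ad-FAM3A6 and Ad-FAM3A7 (orange squares). With 13 aortas the interval of Ifit3 alone lies below 0, and without the 2 aortas those of Ifit1, Ifit3, Irf7, Oasl2, Usp18 and Zbp1 do.

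The 9 genes did not move as 1 block. Over the 13 aortas, Pearson correlations of log2 CPM between pairs of the genes ran from -0.18 to 0.86, with a median of 0.62 over the 36 pairs. These are descriptions over 13 libraries that share a scaling step, and they lean on the 2 lowest aortas, since the median was 0.31 without Ad-FAM3A4 and Ad-FAM3A5. Ifit1, Ifit3, Oasl2 and Rsad2 correlated with one another at 0.72 to 0.86, and at 0.50 to 0.81 without those 2 aortas. Isg15 correlated with Bst2 at 0.81, and at 0.80 without them, and with Irf7 at 0.73, and at 0.57 without them. Bst2 and Irf7 correlated at 0.55, and at 0.34 without them. Between Bst2 and Rsad2 the correlation was -0.01 over 13 aortas and -0.82 without Ad-FAM3A4 and Ad-FAM3A5. Usp18 correlated at 0.84 with both Irf7 and Zbp1, and without the 2 aortas at 0.75 with Irf7 and 0.67 with Zbp1. Ifit3 also correlated with genes outside its group of 4, at 0.81 with Usp18 and 0.82 with Irf7, and without the 2 aortas at 0.67 and 0.60. In values, Ad-FAM3A3 had the highest Rsad2 and Oasl2 of all aortas, 34.6 and 40.2 CPM, but an Isg15 of 2.68 and a Bst2 of 45.5 CPM, below the Ad-sham medians of both. Ad-FAM3A2 was the reverse, with the highest Bst2 and with Rsad2 at 9.96 and Oasl2 at 16.1 CPM.

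Genes upstream and beside these 9 in the pathway were read from lists. Of 15 interferon genes in the table, 12 had a count of 0 in every aorta, among them Ifnb1 and the 8 listed interferon alpha genes. Ifng had 13 counts over all aortas, Ifnz 4 and Ifnk 1, with no more than 5 in any aorta, and no interferon gene could be tested. A count of 0 here need not mean a level under the limit of detection, since how reads of near-identical genes such as the interferon alphas were counted is not given in the sources used here, and Trex1, a broadly expressed DNA exonuclease, was also at 0 in all 13 aortas. The 18 receptors and signal transducers had a median log2 fold change of 0.02, with 9 above and 9 below 0 and none at an unadjusted p under 0.05. Among them Ifnar1, a chain of the type I interferon receptor, averaged 62.2 ± 6.53 CPM over Ad-sham aortas (SD, n = 6) and 67.5 ± 8.08 CPM over Ad-FAM3A aortas (SD, n = 7). Without Ad-FAM3A6 and Ad-FAM3A7 the median of the list was -0.14, and 2 of the 18 were lower at an unadjusted p under 0.05, beside 2.84% of all genes, among them Socs1 (-1.02, SE 0.34), which restrains JAK kinases. Irf8, a factor of B cells and dendritic cells, had a log2 fold change of 1.24 (SE 0.60) with those 2 aortas and 0.04 (SE 0.38) without them.

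Of 18 tested nucleic acid sensors and adaptors, 12 lay above 0, with a median of 0.06. Of these 18 genes 1, Aim2, was at an unadjusted p under 0.05 (log2 fold change 1.19, SE 0.53), a share near the 5.91% of all genes in either direction. Aim2, a sensor of DNA in the cytosol, stood at 0.15 (SE 0.33) without Ad-FAM3A6 and Ad-FAM3A7, and the median of the list at -0.13, with 14 of the 18 below 0 and 1, Dhx58 (-0.73, SE 0.27), lower at an unadjusted p under 0.05. The 48 tested other type I interferon-stimulated genes had a median of -0.04, 20 above and 28 below 0, none at an unadjusted p under 0.05. Mx1, a GTPase that blocks viral nucleocapsids, averaged 3.75 ± 0.790 CPM over Ad-sham aortas (SD, n = 6) and 3.67 ± 3.38 CPM over Ad-FAM3A aortas (SD, n = 7). Without Ad-FAM3A6 and Ad-FAM3A7, 43 of the 48 lay below 0 with a median of -0.33, and 11 were lower at an unadjusted p under 0.05, against 52.0% and 2.84% of all genes, among them Mx1 at -1.12 (SE 0.31), Mx2 at -1.07 (SE 0.30), Ifit3b at -1.03 (SE 0.36) and Oasl1 at -0.96 (SE 0.33). Znfx1, of the same list, was at -0.01 and 0.00 with and without these aortas. The 34 tested interferon-gamma and antigen presentation genes, many of which B cells and dendritic cells express by themselves, had a median of 0.18 with 27 above 0, and without the 2 aortas one of -0.33 with 33 below 0 and 7 lower at an unadjusted p under 0.05, against the same 52.0% and 2.84% of all genes. Leaving out Ad-FAM3A6 alone already moved the median of that list to -0.07, and leaving out Ad-FAM3A7 alone gave 0.11. The part of the B cell, plasma cell and T cell transcripts in these 2 aortas was not tested.

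**Figure D5:**
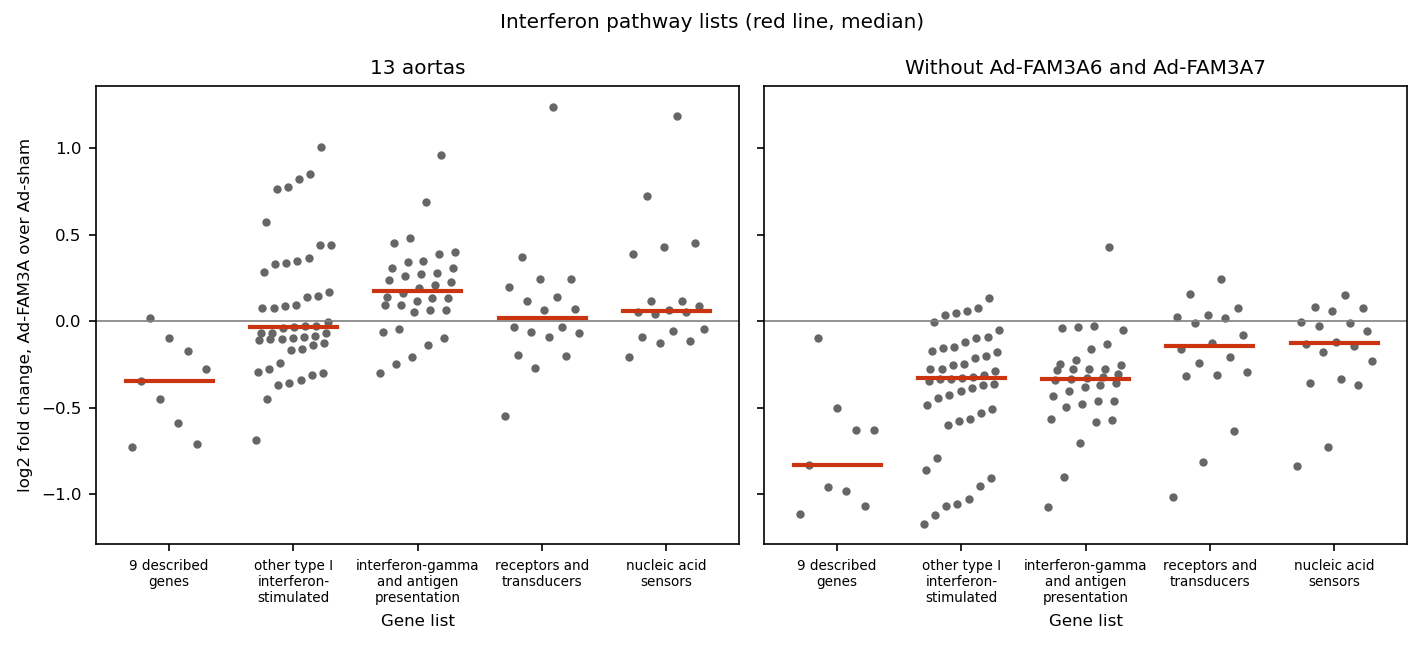
Log2 fold change, Ad-FAM3A over Ad-sham (vertical axis), of each tested gene (grey points, horizontal spread for legibility only) in the 9 genes and 4 pathway lists, with all 13 aortas (left) and without Ad-FAM3A6 and Ad-FAM3A7 (right), red lines marking medians. The medians from left to right are -0.34, -0.04, 0.18, 0.02 and 0.06, and without the 2 aortas -0.83, -0.33, -0.33, -0.14 and -0.13.

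Outside the 9, the 10 genes whose log2 CPM was most like the mean of the 9 over 13 aortas included Mx1 (Pearson r = 0.90), Nrp2 (0.89), Uba7 (0.88), N4bp2l1 (0.88), Xaf1 (0.88), Mx2 (0.88), Lgals9 (0.88), Scfd2 (0.87) and Stat5a (0.87). Of these, 4 genes, Mx1, Mx2, Uba7 and Xaf1, were in the list of other type I interferon-stimulated genes. The likeness leaned in part on Ad-FAM3A4 and Ad-FAM3A5, and without them it was 0.83 for Mx1, 0.73 for Uba7, 0.77 for Mx2 and 0.46 for Xaf1.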

How the data were processed

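Aortas of 13 mice were sequenced, 6 Ad-sham and 7 Ad-FAM3A, grouped by their labels. The authors removed low-quality reads, aligned 150-base reads to GRCm38 with Hisat2 and counted them per gene with FeatureCounts, and the deposited counts are whole numbers without normalization. The annotation release, the strand setting and the treatment of multi-mapping reads are not given in the sources used here. The labels and the study's methods name different extraction and library kits. FPKM were deposited by the authors too, averaged to 1 column per group. Per the file headers the table gives each gene's coordinates and length.

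From the counts, TMM-scaled CPM, filterByExpr and edgeR 4.0.16 (quasi-likelihood test, Benjamini-Hochberg adjustment over all genes tested, called at an adjusted p under 0.05) were run in R 4.3.3. Standard errors are log2 fold changes over the root of F. Exact two-sided permutation tests of single genes used log2 CPM (prior count 2) over 1716 splits, the smallest possible p being 0.000583. There were 9 such tests with 13 aortas and 9 with the 11 left without Ad-FAM3A6 and Ad-FAM3A7 (462 splits), without adjustment over the list. The p-values weigh a difference between the groups against the spread between these aortas. The code was tested on simulated data. The 9 genes, the gene lists and the alternatives (DESeq2 1.42.0, limma 3.58.1, other scalings and filters, the replicate number as a block, aortas left out) were chosen with earlier results of these data known. Genes named are the 9, genes of the lists, Fam3a and the 10 most like the 9 by Pearson correlation. Promoter sequences are from RefSeq, GRCm38.p6. Some results are not reported here.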

Additional observations from a re-analysis of the deposited data

Results flagged for a closer look

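A value was singled out where 1 aorta lay far from the rest of its group, its gap to the nearest aorta being large against the range of the group. Of 52 groups of values examined (the 9 genes, their mean and the lists in each virus group), 3 met this, and about 2.6 would by chance at 1 in 20. Oasl2 in Ad-sham2 had a log2 CPM of 4.39, against 4.97 to 5.28 in the other 5 Ad-sham aortas. Bst2 in Ad-FAM3A2 had a log2 CPM of 6.58, against 5.24 to 5.81 in the other 6 Ad-FAM3A aortas. The mean log2 CPM of the T cell markers in Ad-sham4 was 4.48, against 0.529 to 1.89 in the other 5 Ad-sham aortas. Ad-sham4 also had the highest Zbp1 of the Ad-sham aortas, and the part of T cells in that value was not tested.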

How the results depend on the processing

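None of the 9 genes was called under any of the 24 alternatives run, and the count of called genes stayed at 0 except with DESeq2, which called 10. Leaving out 1 aorta at a time gave 0 called genes throughout and a median log2 fold change of the 9 genes from -0.60 to -0.18. Leaving out Ad-FAM3A6, Ad-FAM3A7 and Ad-sham4 moved that median to -0.87, and leaving out the first 2 or all 3 moved the median of the interferon-gamma list from 0.18 to -0.33 and -0.36 (-0.07 without Ad-FAM3A6 alone, -0.10 with the replicate block). With 1 aorta left out, the median of the receptors and transducers ran from -0.07 to 0.08. That of the sensors ran from -0.02 to 0.15, and that of the other type I interferon-stimulated genes from -0.12 to 0.07. The direction held under all 24 alternatives for 7 of the 9 genes. Bst2 ran from -0.26 to 0.02 when single aortas were left out, above 0 only without Ad-sham3 (0.019). Zbp1 ran from -0.57 to 0.22 when single aortas were left out, and was below 0 without Ad-sham2 (-0.03), Ad-sham3 (-0.06), Ad-sham6 (-0.003), Ad-FAM3A6 (-0.57) or Ad-FAM3A7 (-0.10), with limma-voom (-0.44), with the replicate block (-0.69) and without Ad-FAM3A6 and Ad-FAM3A7 (-1.07) or these and Ad-sham4 (-0.92). The count of genes at an unadjusted p under 0.05, 934 of 15811, was 2269 of 30782 without a filter on low counts, 1501 with DESeq2, 596 with the replicate block and 491 without Ad-sham3. Allowing 1 mismatch in the promoter letters raised the genes with a match from 5 to 6 of 7, and the share of promoter windows with a match to 29.5% (970 of 3286 windows drawn evenly from the table). The replicate numbers were not shown to pair the aortas, since same-numbered aortas deviated together with correlations from -0.33 to 0.45, 3 of 6 above 0.1, and 1 of 6 Ad-sham aortas matched its own number best. The replicate block, which uses numbers 1 to 6 and so drops Ad-FAM3A7, called 0 genes and gave a median of -0.69 for the 9. In that fit 3 of the 9, Ifit1, Ifit3 and Oasl2, were at an unadjusted p under 0.05, beside 596 of all 15639 genes tested. At these depths a gene under about 0.221 CPM may go unseen in an aorta.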
